A study of Rattus norvegicus with 42 samples.

Results

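The soleus, a slow postural muscle of the hindlimb, was examined after 1 day of hindlimb unloading (D1). The 3 D1 libraries, U24, U25 and U26 (unloading for 24 hours), were set against the 3 control libraries U6, U7 and U8 from active rats. Members were taken by label as 6 of the 42 libraries of the series, with every deposited peak that does not lie on chromosome MT (9969 of 9971 peaks). The animals were mature Wistar rats, 3 per group, unloaded by hanging from the tail, and each rat also gave its fast muscle, the extensor digitorum longus (EDL). All groups shared the strain and the room conditions, but the paper states individual cages only for the unloaded rats. Each of the 6 libraries came from a different rat.

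CAGE (cap analysis of gene expression) sequences the capped 5′ end of RNAs, so a tag marks the base where a transcript begins. A cluster of tags (a TSS peak) marks a promoter or another site where transcripts begin, such as a transcribed enhancer. Without an annotation these were not told apart here. A promoter can change in 3 ways that CAGE can see: in how many transcripts start there, in its share of the starts when several promoters lie next to each other, and in the bases used within the cluster. The soleus carries body weight almost constantly and consists largely of slow, oxidative fibres, so its load is removed abruptly by tail suspension, whereas the EDL does not hold posture. Gene names are not part of the deposited tables and neither the Rnor_6.0 annotation nor its sequence was used in this work, so a peak is given by its position on that build, with the strand in parentheses, and not by a gene.

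The control libraries held 7799116 to 16652474 tags and the D1 libraries 5784163 to 22019390, of which the peaks took 89.5% to 95.9%, apart from 72.4% in U7. Library names place U6, U7, U8 and U24 in sequencing lane 1 and U25 and U26 in lane 2, so lane and unloading are confounded in part. U26 carried signs of some EDL material, and results are therefore given with and without it. The evidence is a list of 234 fast-muscle peaks, higher in EDL than in soleus controls by over 3 on the log2 scale at an adjusted p under 0.05, with a mean of at least 10 CPM (peak tags scaled to the size of the library). These peaks took 0.522%, 0.605% and 0.493% of the peak tags in U6, U7 and U8, and 0.144% in U24, 0.196% in U25 and 0.836% in U26, against 5.94% to 8.19% in the EDL controls. The share at D1 (0.392% ± 0.385, SD, n = 3) did not differ from the control share (0.540% ± 0.0583) in an exact two-sided permutation test (p = 0.5, where 0.1 is the smallest p that 3 against 3 allow), and the list was chosen with the same controls. In a stricter list, higher in EDL by over 5 on the log2 scale, the share was 0.0965% in U26 (95% Wilson interval 0.0947% to 0.0983%, counting error only) and at most 0.0240% in the other 20 soleus libraries. U26 had tags on every one of the 234 peaks, while U24 had none on 65 of them and U25 none on 42. Over the other 20 soleus libraries this number ran from 1 to 96, so near-complete cover was not particular to U26. The number also depends on depth (5474364, 21116882 and 12695658 peak tags in U24, U25 and U26).

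**Figure D1:**
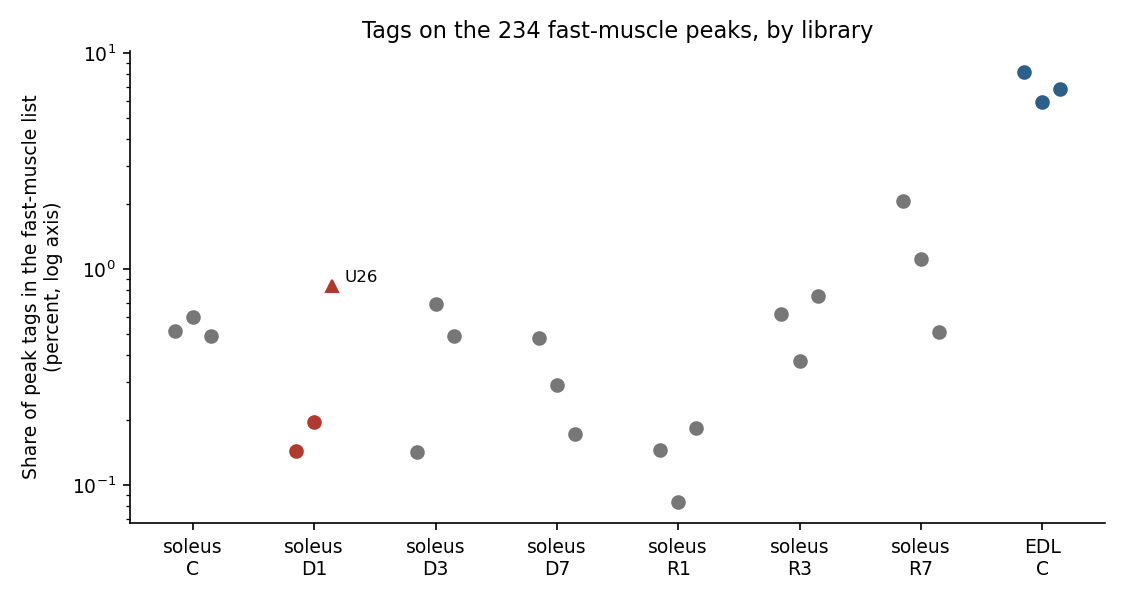
Share of peak tags on the 234 fast-muscle peaks, in percent on a log axis, with 1 point per library for the 7 soleus groups and the EDL controls. U26 (triangle, 0.836%) lies above the other D1 libraries (0.144% and 0.196%) and far under the EDL controls (5.94% to 8.19%), and some soleus libraries of later groups lie higher (up to 2.08% at R7).

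The same pattern appeared in the window of Myh4, the gene of the IIb myosin heavy chain of the fastest fibres (chromosome 10, plus strand, the stretch that the study displays, with approximate ends). Its 35 deposited peaks together measured 22.6, 37.0 and 7.06 CPM in U6, U7 and U8, and 8.40, 8.05 and 177 CPM in U24, U25 and U26. U26 was more than 4 times above each of the other 5 libraries. Of the 14 peaks of this window that could be tested, 12 were highest in U26, and 0 were called. At chr10:53792018-53792235 (+) the levels were 0, 0.279 and 0 CPM in the controls and 1.18, 0.279 and 18.6 CPM in U24, U25 and U26. The EDL controls measured 266.8, 452.5 and 336.8 CPM at this peak, on the scale of the fit over all 42 libraries. The window is thus no evidence separate from the list of fast-muscle peaks, and its peaks are not independent of each other.

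The first question is which peaks changed after 1 day without load. Of 9844 peaks that passed the count filter, 194 (1.97%) were called at D1, of which 84 (0.853%) were higher and 110 (1.12%) lower. A call is an adjusted p under 0.05 in edgeR's quasi-likelihood test with a change of over 2.38-fold in either direction. The fit covered all 21 soleus libraries. The cutoffs are those of the study, which applied them with DESeq2, and DESeq2 gave 319 calls here. The median log2 fold change was 1.83 over the rises and −1.999 over the falls, beside 0.01 over all tested peaks. Rises past 3 on the log2 scale numbered 11 and falls 23. The peaks that rose had low levels in the controls (median 6.96 CPM, against 12.5 CPM over all tested peaks) and reached a median of 29.4 CPM. Those that fell went from a median of 21.2 CPM to 5.39 CPM. The same libraries chose the peaks, so low controls in rises and high ones in falls follow in part from the choice. CPM levels are not scaled to length, and the peaks were wider than the median of 208 nt over all tested peaks (256.5 nt for rises, 311 nt for falls). In whole muscle, fewer cells that use a promoter and less RNA per cell cannot be told apart. Every D1 library lay above every control in 83 of the 84 rises, and below in 109 of the 110 falls. Among all tested peaks this held for 1129 (11.5%) and 1073 (10.9%), so complete separation alone was common.

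The limits of these calls are the lane and the number of animals. With the lane as a covariate over all 42 libraries, 16 peaks (0.161%) were called, 15 of them among the 194, and U24 alone against the controls within lane 1 gave 20 (0.202%), 18 of them among the 194. Both rest on U24, the only D1 library in the lane of the controls, and gave nearly equal fold changes at the peaks given by position, so they count as 1 comparison. The test of U24 takes its spread from the other soleus groups and assumes that U24 varies as they do. With the lane as a covariate, 13 of the 16 calls were higher and 3 lower, unlike the 84 and 110 of the main fit. The median log2 fold change of the rises and falls was 1.81 and −2.06 in U24 alone and 1.80 and −2.07 in the fit with the lane. U24 is 1 of the libraries that chose the peaks, so these medians are a description and no check on the lane. Without U26, 195 peaks were called (1.98%), 99 higher and 96 lower, of which 144 were shared with the full set. By direction, 72 of the 84 rises and 72 of the 110 falls were still called without U26. None of the 194 changed sign, but U24 and U25 were among the libraries that chose them, so the sign could hardly change. U26 was the D1 library nearest to the controls in 50 of the 84 rises and in 50 of the 110 falls. U24 was nearest in 23 and 27, and U25 in 11 and 33. Leaving out a control moved the count to 109 (U6), 151 (U7) or 73 (U8), and leaving out U24 or U25 to 98 or 89. Of the 12 largest rises and 12 largest falls given by position, 7 and 6 were called whichever of the 6 libraries was left out, and 4 and 1 were called within lane 1 and with the lane as a covariate.

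At chr4:148782447-148782582 (+) the levels were 5.57, 7.96 and 7.29 CPM in U6, U7 and U8, and 216, 211 and 99.8 CPM in U24, U25 and U26. The controls lay close together and every D1 library was at least 10 times above them. The log2 fold change was 4.67 ± 0.53 (SE, n = 3, edgeR adjusted p = 0.000314), and it was also called without U26 and in the comparison that rests on U24.

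This also held at chr4:49267770-49267952 (−), chr2:196300916-196301224 (−) and chr9:81968587-81969019 (+). U24 was among the libraries that chose these peaks. The first measured 1.33, 1.12 and 0.584 CPM in U6, U7 and U8 and 20.02, 12.8 and 11.2 CPM in U24, U25 and U26. The next measured 1.02, 0.837 and 1.02 CPM in the controls and 12.01, 12.1 and 10.1 CPM at D1, and it is 1 of the 2 rises that belong to the 234 fast-muscle peaks, to which 0 of the falls belong. The last measured 8.24, 7.12 and 9.19 CPM in the controls and 53.0, 64.3 and 54.0 CPM at D1. In each the D1 libraries lay well above the controls, and their log2 fold changes were 3.802 ± 0.51, 3.55 ± 0.50 and 2.80 ± 0.37 (SE).

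Some of the largest rises started from almost no tags. At chr16:75874522-75874581 (−) the controls held 1, 4 and 3 tags (0.0785, 0.558 and 0.438 CPM), and U24, U25 and U26 held 315, 2471 and 414 tags (74.2, 173 and 38.5 CPM). The log2 fold change of 8.19 ± 2.08 (SE, adjusted p = 0.041) was the largest of all calls, with a wide standard error. At chr8:111974081-111974192 (−) the controls held 4, 2 and 0 tags and the D1 libraries 43, 260 and 68, a log2 fold change of 5.68 ± 1.14. Neither was called within lane 1 or with the lane as a covariate. The first was called without U26 and lost its call without any other library (adjusted p = 0.173, 0.118 and 0.154 without U6, U7 and U8, and 0.078 and 0.108 without U24 and U25). The second lost its call without U8 (adjusted p = 0.0653) and without U25 (0.051). Every deposited peak reached 10 TPM in some library. In soleus the second peak reached 10 CPM only in U24 and U25 (10.1 and 18.2), so it may be listed only through its D1 level.

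The remaining rises of the 12 were chr1:165482816-165482953 (+) with a log2 fold change of 4.58, chr3:111160175-111160323 (+) with 3.43, chr17:70684081-70684308 (+) with 3.21 and chr16:20352614-20352752 (+) with 3.13. All were called without U26, and none was called within lane 1 or with the lane as a covariate. Within lane 1 the log2 fold change was 3.69 at the first of these (adjusted p = 0.177), 3.36 at the second (0.107), 1.86 at the third (0.242) and 2.47 at the last (0.0715). The first also lost its call without U8 (adjusted p = 0.0684). At chr1:165482816-165482953 (+) the levels were 3.29, 1.95 and 0.875 CPM in the controls and 27.6, 82.6 and 43.2 CPM at D1. At chr16:20352614-20352752 (+) they were 2.67, 3.07 and 2.92 CPM and then 16.01, 24.4 and 35.0 CPM.

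A cluster on chromosome 4 held 3 rises within 12 kb on the minus strand. Its strongest peak, chr4:30556594-30556951 (−), measured 68.0, 71.6 and 52.1 CPM in U6, U7 and U8 and 292, 524 and 580 CPM in U24, U25 and U26. The second, chr4:30545275-30547014 (−), measured 18.4, 23.4 and 10.1 CPM and then 115, 75.9 and 206 CPM, and the smallest, chr4:30548144-30548217 (−), 0.235, 0.140 and 0.146 CPM and then 3.30, 2.16 and 2.79 CPM. The controls and the D1 libraries were apart at all 3. The first 2 had adjusted p of 0.0607 and 0.0934 without U26 and were not called then, with log2 fold changes of 2.67 and 2.46. Each also lost its call without any 1 control and without U25, and the second without U24.

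One rise rested on U26 alone. The peak chr10:49538488-49538711 (+) measured 4.63, 5.30 and 6.13 CPM in the controls and 11.8, 4.75 and 212 CPM in U24, U25 and U26, so that the groups overlapped. Its log2 fold change was 3.84 with U26 and 0.58 without it. It was named because it is the only rise with overlapping groups, after its values were seen.

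**Figure D2:**
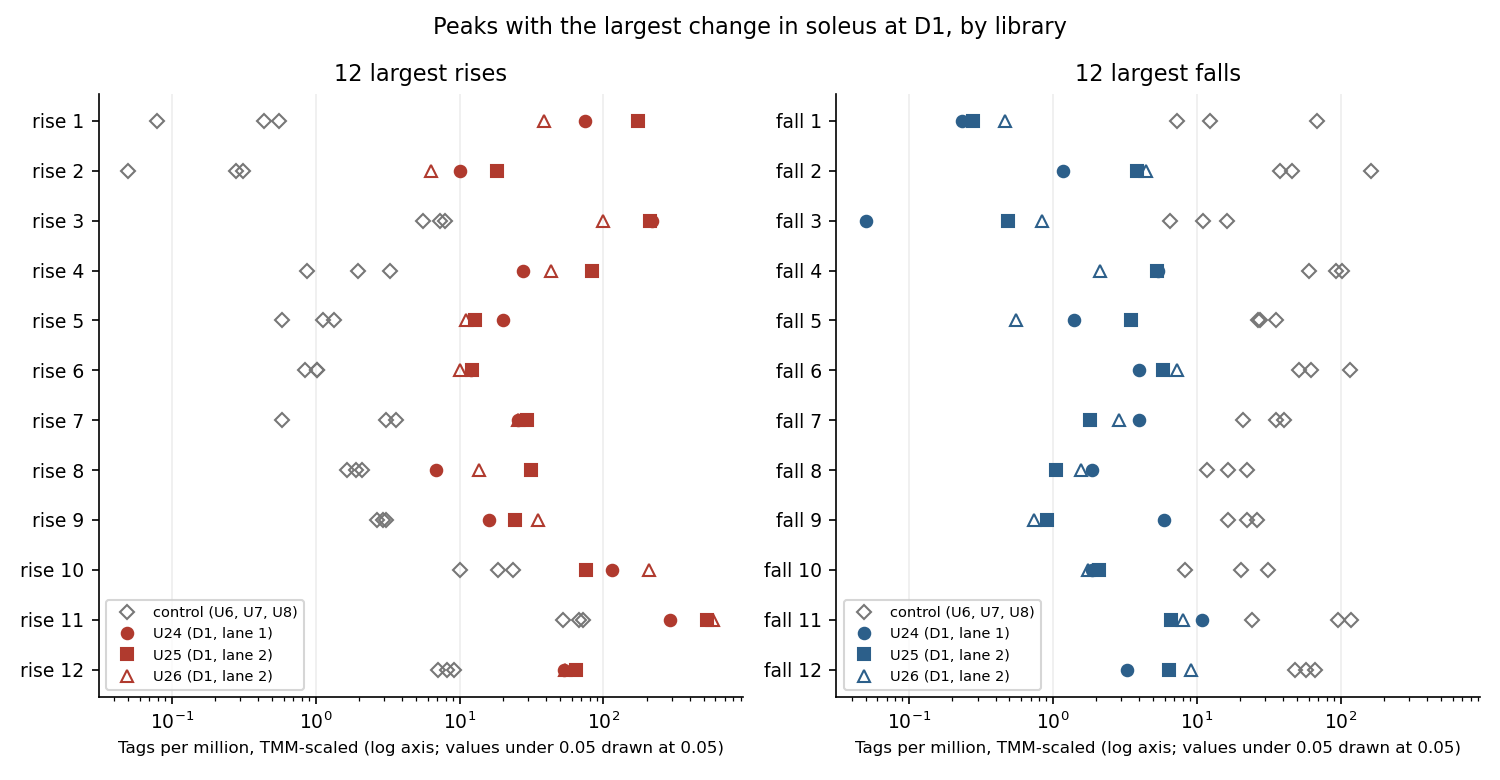
Level of the 12 largest rises and the 12 largest falls among called peaks with separate groups and at least 10 CPM in either group, in CPM on a log axis, by library (diamonds for U6, U7 and U8, circles, squares and triangles for U24, U25 and U26). Peaks are ordered by log2 fold change, from 8.19 to 2.80 (rises) and from −6.37 to −3.15 (falls), and in every row the D1 libraries lie on one side of the controls.

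The falls were of similar size. At chr11:32550425-32550760 (−) the levels were 46.2, 38.0 and 161 CPM in U6, U7 and U8, and 1.18, 3.84 and 4.46 CPM in U24, U25 and U26. The controls were spread more than 4-fold, yet the highest D1 library was still far under the lowest control. The log2 fold change was −4.61 ± 0.62 (SE, adjusted p = 0.001), and among the 12 largest falls it was the one called both without U26 and in the comparison that rests on U24.

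At chr1:277977208-277977708 (−) the controls measured 103, 60.6 and 92.6 CPM and U24, U25 and U26 5.42, 5.30 and 2.14 CPM. At chr8:81963512-81963882 (+) they measured 35.8, 27.5 and 26.7 CPM and then 1.41, 3.49 and 0.557 CPM. At chr19:561541-561836 (+) they measured 35.7, 21.1 and 40.1 CPM and then 4.003, 1.81 and 2.88 CPM. At all 3 the groups were apart, with log2 fold changes of −4.34, −3.96 and −3.54, and all were called whichever of the 6 libraries was left out. None of the 3 was called within lane 1 (adjusted p = 0.204, 0.177 and 0.177) or with the lane as a covariate.

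The largest fall by fold change, chr17:86408061-86409121 (+), dropped from 7.30, 12.3 and 68.3 CPM in U6, U7 and U8 to 0.235, 0.279 and 0.465 CPM at D1, which are 1, 4 and 5 tags. The value of −6.37 ± 1.16 rests on few tags at D1, U8 was far above the other controls, and the call was lost without U25 (adjusted p = 0.0502). At chr13:106388780-106388971 (+) the drop was from 10.98, 6.56 and 16.3 CPM to 0, 0.488 and 0.836 CPM (0, 7 and 9 tags), a log2 fold change of −4.43 that was −9.79 in U24 alone, where the peak had 0 tags, so that this value depends on the prior count. The remaining falls of the 12 were chr15:4069082-4069615 (+) with a log2 fold change of −3.70, chr15:37868306-37868591 (−) with −3.53, chr10:51756175-51756478 (+) with −3.37, chr9:38090146-38090609 (−) with −3.36, chr9:26783256-26783666 (+) with −3.25 and chr20:4877374-4879965 (−) with −3.15. Of these 6, chr10:51756175-51756478 (+) and chr9:38090146-38090609 (−) were not called without U26 (adjusted p = 0.126 and 0.0666), and the log2 fold change of the former was −1.87 within lane 1. Of the other 4, chr15:4069082-4069615 (+) was called whichever library was left out, and the calls at the remaining 3 were lost without U8 and without U25, and that at chr20:4877374-4879965 (−) also without U6 and without U24.

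The 194 calls did not all come from separate places. They fell into 181 loci when peaks of 1 strand and 1 direction within 20000 nt were joined, 80 of rises and 101 of falls, and 11 loci held more than 1 peak. A further 5 pairs of called peaks, on different chromosomes or more than 100000 nt apart, kept a nearly steady ratio over the 42 libraries. They were picked for a correlation over 0.9 and an SD of the log2 ratio under 0.35, so their SD of 0.131 to 0.297 follows from the rule. Sequences were not compared, so whether tags are split between near copies was not tested. If they are, the levels of these peaks are uncertain. One such pair is chr20:2699756-2701913 (−), which measured 67.6, 47.9 and 61.7 CPM in the controls and 3.53, 8.38 and 9.20 CPM at D1, with chr20:4877374-4879965 (−), which measured 66.1, 47.9 and 57.2 CPM and then 3.30, 6.42 and 9.10 CPM. Counted once per pair, 189 calls were left. Of the rises 4, and of the falls 2, had a tested peak on the opposite strand that ended within 1000 nt upstream or reached at most 200 nt into the peak. Such an overlap held for 5 of these 6, and 0 of these partners was called in the same direction, beside 4 of the 784 partners over all tested peaks.

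The second question is whether the EDL of the same rats changed in the same way. In EDL, D1 against control gave 295 calls of 9341 tested, 179 higher (1.92%) and 116 lower (1.24%). The EDL libraries were shallower (1696341 to 13384117 peak tags), and all 3 EDL controls were in lane 1, while the EDL D1 libraries were in lane 6 (U24) and lane 2 (U25 and U26). Within EDL, lane and unloading therefore cannot be told apart. For the difference between the muscles a lane term rests on soleus U24, the only D1 library in lane 1. It also assumes equal lane effects in both muscles. Of the 84 soleus rises, 81 were tested in EDL, where 13 were called higher and 1 lower, 62 had a positive log2 fold change (52.9% of all 9237 peaks tested in both muscles) and the median was 0.61, beside 0.04 over all peaks. Of the 110 falls, 97 were tested in EDL, where 8 were called lower and 8 higher, 57 had a negative log2 fold change (47.1% of all) and the median was −0.24. In a fit over all 42 libraries the difference between the muscles in the D1 change was called at 58 peaks (0.583%) where soleus was higher and at 138 (1.39%) where it was lower, of 9944 tested. Of the rises 17 and of the falls 37 were among these, in the direction of the soleus change, and the comparison shares the soleus libraries that chose them. Leaving out 1 of the 12 libraries of this comparison, soleus U26 among them, gave 118 to 299 calls. Some peaks where soleus was higher were high in soleus only in U26. One, picked after its values were seen, is chr1:220136327-220136534 (−). It had 172.1 CPM in soleus of U26 and at most 16.15 CPM in the other soleus libraries of this comparison. The 3 largest calls where soleus was higher were lost without soleus U26. With the animal as a block, since both muscles of a rat carry its number, 204 peaks were called in place of 196. The sets differed, as the 3 largest calls where soleus was higher were not called with the block.

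**Figure D3:**
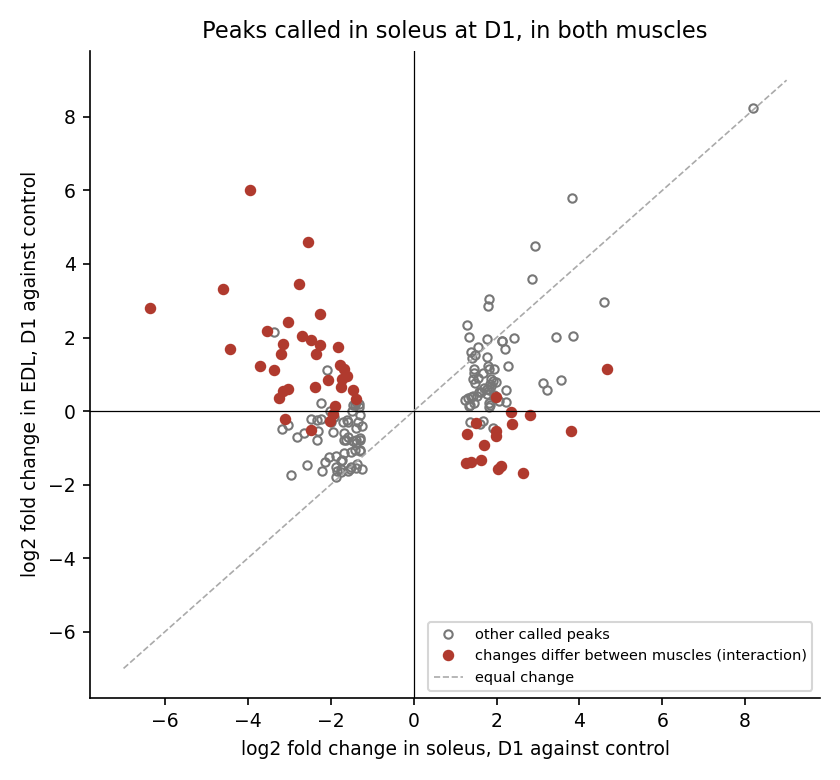
Log2 fold change at D1 against control in soleus (x axis) and in EDL (y axis) for the peaks called in soleus that were also tested in EDL, 81 rises and 97 falls. Filled points mark the peaks whose change differed between the muscles (interaction), and several falls in soleus lie above 0 on the EDL axis.

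Several soleus falls were rises in EDL. On the scale of the 42-library fit, chr8:81963512-81963882 (+) measured 33.3, 24.6 and 24.8 CPM in soleus of U6, U7 and U8 and 1.29, 3.20 and 0.50 CPM in soleus of U24, U25 and U26. In EDL it measured 3.84, 0.84 and 0.74 CPM in the controls and 88.4, 307 and 55.0 CPM at D1. All groups of 3 were apart within a muscle, and the difference was −10.1 ± 1.29 (log2, SE, adjusted p = 0.000019).

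At chr11:32550425-32550760 (−) EDL went from 11.6, 4.60 and 4.22 CPM to 28.7, 130 and 65.0 CPM in U24, U25 and U26, and the difference between the muscles was −8.01 ± 0.95. At chr17:86408061-86409121 (+) EDL went from 4.14, 0.42 and 4.22 CPM to 10.7, 50.3 and 12.3 CPM, and the difference was −9.25 ± 1.32. In all, 8 of the falls were called higher in EDL, and in each of the 8 the difference between the muscles was called. The EDL library of U25 was the highest EDL library at D1 in all 8, and in 103 of the 138 peaks where the difference was negative. Without it the difference was called at 118 peaks in place of 196, all 8 among them, and 4 of the 8 were called higher in EDL. Leaving out an EDL control left 119 (U6), 176 (U7) or 149 (U8) calls and 6, 6 or 4 of the 8 higher in EDL, and without the EDL library of U26 there were 299 calls, 163 of them where soleus was higher. These fits were added after the data were seen. Among them were chr8:128711971-128712139 (−), which in soleus fell from 142, 105 and 208 CPM to 15.5, 25.04 and 24.9 CPM and in EDL went from 63.3, 19.7 and 32.7 CPM to 99.0, 900 and 358 CPM, and its neighbour chr8:128702211-128704860 (−). These last were chosen after their values were seen.

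Opposite calls among the rises were few. In EDL 1 of the 81 tested was called lower, near the 1.24% of all peaks tested there. Of the 17 rises with a called difference between the muscles, 15 had a negative log2 fold change in EDL and 1 was called lower there, and of the 37 falls with such a call 31 had a positive one and 8 were called higher. A called difference favours opposite signs by its construction. The rise called lower in EDL was chr6:107639099-107639517 (−), which in soleus went from 2.48, 3.75 and 4.33 CPM to 14.2, 37.7 and 12.9 CPM in U24, U25 and U26. In EDL it went from 18.5, 17.6 and 34.2 CPM to 4.26, 7.61 and 9.20 CPM, and the difference was 4.26 ± 0.82 (adjusted p = 0.00273). It was named after its values were seen.

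Among the named rises, at chr4:148782447-148782582 (+) EDL measured 2.93, 10.04 and 10.9 CPM in the controls and 27.7, 17.5 and 11.7 CPM at D1, and the difference between the muscles was 3.42 ± 0.69 (adjusted p = 0.00407). At chr9:81968587-81969019 (+) EDL measured 18.7, 19.2 and 16.4 CPM and then 19.2, 20.6 and 14.3 CPM, so that the groups overlapped, and the difference was 2.83 ± 0.49. At chr16:75874522-75874581 (−) both muscles had high values at D1, with an EDL mean of 0.165 CPM in the controls and 47.4 CPM at D1 (22.5 to 65.5), and the difference of −0.18 ± 3.21 did not exclude sizeable differences either way. The chromosome 4 cluster also rose in EDL, from a mean of 44.1 to 556 CPM (286 to 773) at chr4:30556594-30556951 (−) and from 13.6 to 317 CPM (205 to 528) at chr4:30545275-30547014 (−), with differences between the muscles of −0.80 ± 1.15 and −1.65 ± 1.03 that were not called.

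The third question is how far the D1 state was particular to the first day. Peaks at D1 were compared with the mean of 3 and 7 days of unloading (D3 and D7, 3 libraries each) in the same fit, and 49 were higher (0.498%) and 62 lower (0.63%) of 9844. The D1 libraries were in lanes 1 and 2, those of D3 in lanes 2 and 3 and those of D7 in lane 3, so lane and day are largely confounded. With the lane as a covariate over all 42 libraries the calls were 21 higher and 38 lower, and leaving out U24, U25 or U26 left 56, 29 or 61 in place of 111. The comparison shares the D1 libraries with the first one, and of the 84 rises 20 and of the 110 falls 39 were called in the same direction (5 and 15 with the lane as a covariate, and 7 and 7 without U25). Against the controls, every D3 library lay above every control in 46 of the 84 rises and every D7 library in 53, beside 11.7% and 11.2% of all tested peaks. For the falls, every D3 library lay below every control in 61 of 110 and every D7 library in 42, beside 10.1% and 9.4%. These counts use the controls that chose the peaks.

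The median log2 ratio to the control mean (with 0.5 CPM added) was 1.77 at D1, 0.86 at D3 and 0.87 at D7 for the rises, and −1.92, −0.83 and −0.63 for the falls. At chr4:148782447-148782582 (+) the mean was 18.4 CPM at D3 (16.2 to 19.7) and 25.9 CPM at D7 (20.4 to 33.0), under the D1 libraries (99.8 to 216), and the difference between D1 and later unloading was 3.01 ± 0.38 (adjusted p = 0.000581). At chr4:30556594-30556951 (−) the mean was 58.6 CPM at D3 and 411 CPM at D7 (306 to 509), so that the D3 libraries (11.7 to 130) were under both the D1 and the D7 libraries. At chr1:277977208-277977708 (−) the later means, 84.1 CPM at D3 (20.3 to 124) and 90.5 CPM at D7 (54.6 to 150), were near the control levels, and the difference between D1 and later unloading was −4.37 ± 0.73. At chr15:4069082-4069615 (+) the later means were 8.12 CPM at D3 (1.36 to 16.9) and 2.93 CPM at D7 (1.48 to 4.08), beside 5.74 CPM at D1 (4.003 to 7.34) and 51.2 to 115 CPM in the controls.

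On the first day of recovery after 7 days of unloading (R1), every library lay below every control in 47 of the 110 falls, beside 24.9% of all tested peaks. Every R1 library lay above every control in 31 of the falls, a share near the 30.9% of all tested peaks, and the median log2 ratio to the control mean was −0.44, beside 0.04 over all tested peaks. For the 84 rises these counts were 7 below and 29 above, with a median of 0.31. The R1 mean exceeded 5 times the control mean in 13 of the 110 falls, in 10 of the 84 rises and in 689 (7.0%) of all tested peaks. The chr20:4877374-4879965 (−) peak had an R1 mean of 3559 CPM against 47.9 to 66.1 CPM in the controls, with R1 libraries from 1019 to 7516 CPM, so that 1 library carried much of the mean. At chr8:81963512-81963882 (+) the R1 mean was 596 CPM (368 to 738) and at chr19:561541-561836 (+) it was 772 CPM (595 to 1014). These 3 are among the falls with the highest ratio at R1 and were chosen after their values were seen. The R1 libraries are all from lane 4.

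**Figure D4:**
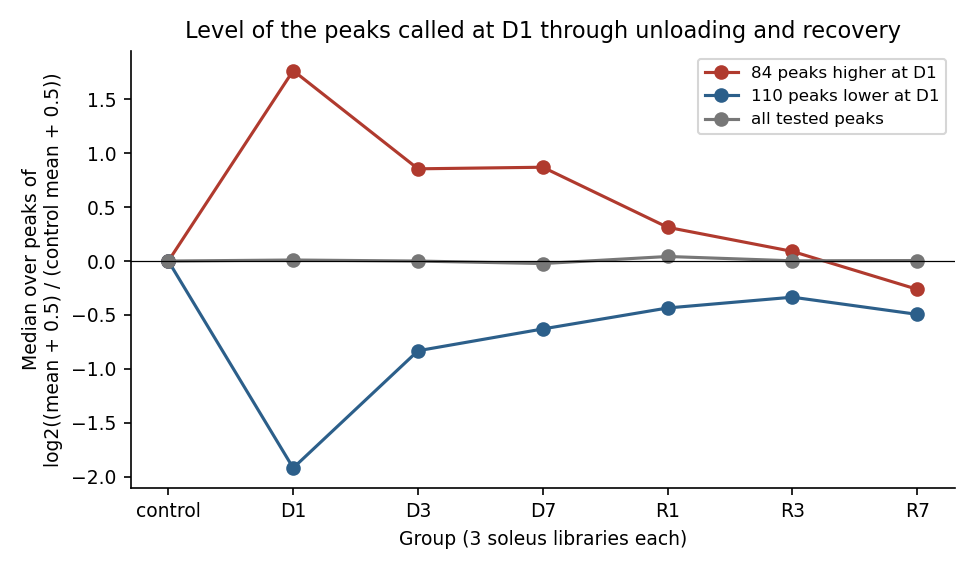
Median over peaks of the log2 ratio of a group's mean to the control mean, with 0.5 CPM added to both, for the 84 peaks higher at D1, the 110 lower at D1 and all 9844 tested peaks, by group in order of time. Both sets of called peaks are nearer to the controls at D3 and D7 (0.86 and 0.87, −0.83 and −0.63) than at D1 (1.77 and −1.92), and the D1 point follows from the choice of the peaks.

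The next question is whether neighbouring peaks changed their shares. Peaks of 1 strand with gaps of at most 1000 nt were joined, which gave 605 groups with 1770 peaks. Each peak was tested against the rest of its group with edgeR's diffSpliceDGE, and 1 peak (0.0565%) passed an adjusted p of 0.05, with 34 at an unadjusted p under 0.05. It is chr2:198656230-198656586 (+), downstream of chr2:198655288-198655505 (+). This peak is also 1 of the 84 rises (log2 fold change 1.98), so the call is the same rise seen as a share. Its share of the group was 1.74%, 2.20% and 1.62% in U6, U7 and U8, and 5.44%, 9.00% and 6.19% in U24, U25 and U26. The D1 shares were all above the control shares, while the main peak changed little in level (239, 168 and 284 CPM, then 237, 218 and 224 CPM). The adjusted p was 0.041, and it rose above 0.05 when any 1 of the 6 libraries was left out.

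The last question is whether the starts within a peak moved. For each peak with at least 50 tags in each of the 6 libraries (4652 peaks), the tag-weighted mean start was measured in nt from the upstream end of the peak and tested with limma. At an adjusted p under 0.05, 34 peaks were called, 32 with the mean start further downstream at D1 (0.688%) and 2 further upstream (0.043%). Lane and unloading are confounded in part here too. Over all tested peaks 62.5% had a shift downstream, with a median of 0.346 nt, so part of the direction was common to peaks in general. Leaving out a control left 15 (U6), 23 (U7) or 22 (U8) calls, of which 14, 20 and 20 were among the 34. Without U24 there were 34 calls, 8 of them upstream and 19 among the 34, without U25 there were 17 (14 among the 34), and without U26 there were 61 (56 downstream, 29 among the 34).

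At chr5:59063047-59063507 (−) the mean start was at 289, 279 and 275 nt in U6, U7 and U8 and at 316, 337 and 322 nt in U24, U25 and U26, a shift of 43.8 ± 8.47 nt (SE). At chr7:139557592-139557858 (+) it was at 83.4, 84.9 and 87.7 nt and then at 118, 122 and 113 nt, a shift of 32.1 ± 4.84 nt. At chr16:54332590-54333005 (+) it was at 127, 132 and 133 nt and then at 159, 163 and 156 nt, a shift of 28.5 ± 4.87 nt. These 3 shifts downstream were the largest, and the level of none of the 3 peaks was called. The other 29 downstream shifts ran from 1.83 nt upward, with a median of 11.2 nt over all 32.

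The starts moved upstream at chr4:100465147-100465397 (+), where the mean was at 182, 184 and 180 nt in the controls and at 90.3, 100 and 102 nt at D1 (a shift of −84.9 ± 14.8 nt), and at chr1:221087085-221087530 (−), where it was at 85.2, 85.2 and 84.2 nt and then at 79.4, 80.5 and 80.6 nt. The smallest called shift downstream was at chr3:150323019-150323249 (+), 1.83 nt. Of these 6 shifts, those at chr7:139557592-139557858 (+) and chr1:221087085-221087530 (−) were called whichever of the 6 libraries was left out, and the other 4 lost their call without at least 1 of them. Of the 34 peaks, 2 were also called for their level, beside 1.53% of the 4652 peaks tested for the start position.

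**Figure D5:**
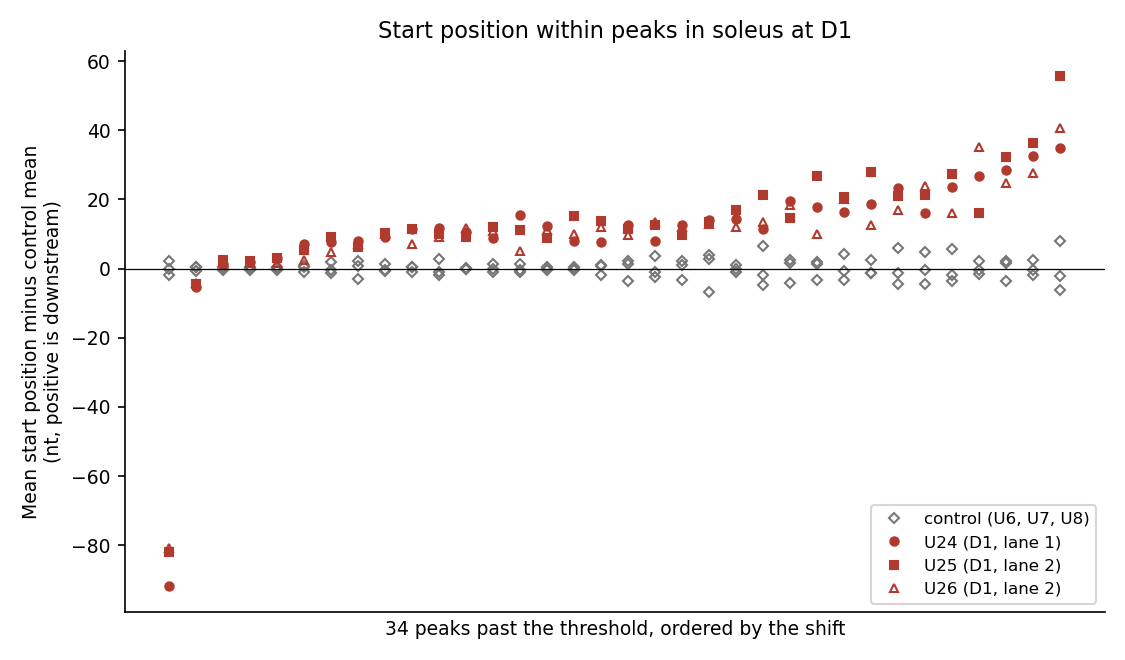
Mean start position relative to the mean of the controls, in nt (positive is downstream), at the 34 peaks that passed the test, ordered by shift, with diamonds for U6, U7 and U8 and circles, squares and triangles for U24, U25 and U26. In 32 peaks the D1 libraries lie above the controls, by 1.83 to 43.8 nt on average, and in 2 below.

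For 28 of the 32 downstream shifts the D3 mean was downstream of every control (33.5% of all peaks tested for the start position), and for 20 the D7 mean was (22.1%). In recovery this held for 13 at R1 (31.4%), 11 at R3 (29.0%) and 17 at R7 (1256 of the 4652 peaks), where R3 and R7 are 3 and 7 days of recovery. The median shifts were 5.16, 2.57, 0.646, 0.657 and 2.98 nt in this order. Every single library of the group was downstream of every control for 18 shifts at D3 and 11 at D7, and in recovery for 9, 5 and 10 after 1, 3 and 7 days. The share over all tested peaks was not obtained for this stricter count, so it cannot be set against a background. At chr7:139557592-139557858 (+) the mean start was at 113 nt at D3, 97.4 nt at D7 and 83.3 nt at R1, against 83.4 to 87.7 nt in the controls. These groups use other libraries than the test but the same controls.

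The share of peak tags on the mitochondrial peaks, which were left out of the tests above, was 8.48%, 10.9% and 5.53% in U6, U7 and U8 and 10.4%, 7.20% and 11.6% in U24, U25 and U26. The groups overlapped, and the difference between the means (8.31% ± 2.70 and 9.75% ± 2.28, SD, n = 3) gave p = 0.6 in an exact two-sided permutation test, whose smallest p is 0.1.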

How the data were processed

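Capped RNA 5′ ends of soleus and EDL of 21 rats were measured by nAnT-iCAGE. Per the paper's methods the authors trimmed the reads, mapped them to Rnor_6.0 with STAR and aggregated them to CTSS with PromoterPipeline, whereas the submitters' processing notes name Trimmomatic 0.38, BWA and HISAT2. The authors deposited whole-number counts of tags per CTSS and per peak, without normalization, and peak values normalized to TPM, which were used only to describe the table (every peak reached 10 TPM in some library). The paper's methods let a read map to several loci at first, and whether such reads stayed in the deposited counts is not stated. If they did, near copies can share tags. No column of another series was found (0).

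The main test was the quasi-likelihood test of edgeR 4.0.16 under R 4.3.3, with TMM scaling, the filterByExpr filter and p-values adjusted by Benjamini and Hochberg, and a log2 fold change divided by the root of its F statistic gave its SE. Start positions were tested with limma 3.58.1, and DESeq2 1.42.0 was an alternative, as were other size factors, filters, lane terms, gaps, tag minimums and left-out libraries. Tests were tried on simulated data. Other steps used Python 3.11.15. Peaks given by position were the 12 largest rises and 12 largest falls among calls with separate groups and at least 10 CPM, with the 3 largest calls per direction of the other tests. The members and lists were chosen with earlier results of these data known. Different rats form the groups, and precision is limited by 3 rats per group. Both muscles of a rat carry its number, and the deviations of its libraries from their group means correlated with r between −0.00983 and 0.432 in the 6 rats (over 0.1 in 4). Lists of genes and markers could not be used because the files hold no gene names.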

Additional observations from a re-analysis of the deposited data

Results flagged for a closer look

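The difference between soleus and EDL in the D1 change was tested as an interaction, and the 3 largest calls per direction with at least 10 CPM in some group stand out as differing between the muscles. Where soleus was higher, the log2 difference was 6.96 at chr13:108590444-108590656 (−), 6.34 at chr10:53792018-53792235 (+), in the Myh4 window, and 5.80 at chr1:100525882-100525912 (−). In soleus these 3 peaks had 7.29, 16.8 and 1.34 CPM in U26, and at most 1.08 CPM in each of the other 5 libraries. Without U26 the differences were 1.62, 2.78 and 3.495 with adjusted p of 0.912, 0.561 and 0.371, and with the animal as a block the adjusted p were 0.148, 0.38 and 0.205. Each also lost its call without several of the other libraries left out in turn. The soleus controls of the last peak were all at 0 tags, so its fitted value depends on the prior count.

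Where soleus was lower, the log2 difference was −9.25 at chr17:86408061-86409121 (+), −10.1 at chr8:81963512-81963882 (+) and −13.5 at chr13:109902790-109902978 (−). In EDL the last peak measured 0.20, 0 and 0 CPM in the controls and 7.45, 94.4 and 12.9 CPM in U24, U25 and U26. In soleus it measured 1.24, 0.12 and 0 CPM in the controls and 0 in all D1 libraries, so its fitted value depends on the prior count and is no bound, and its adjusted p rose to 0.0598 to 0.0858 when a soleus D1 library was left out and to 0.698 without the soleus library of U6. Groups of 3 libraries were not searched for single outlying libraries.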

How the results depend on the processing

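Among the alternatives for the 194 calls at D1, DESeq2 gave 319 (138 higher), tag totals as library sizes 113 and the lane as a covariate over 42 libraries 16, while U24 alone within lane 1 gave 20, and leaving out 1 library gave 73 to 195. The 24 named rises and falls kept their direction under every alternative run. They were named for separate groups, so leaving out a library or keeping U24 alone could hardly reverse them. Some alternatives were chosen after seeing the data. These were counting the possible near-copy pairs once (189 calls) and the lane as a covariate against later unloading. Leaving out control or EDL libraries for the difference between the muscles was another. Leaving out a soleus D1 library gave 29 to 61 calls against later unloading (111), where the lane as a covariate gave 59, and leaving out 1 of 12 libraries gave 118 to 299 for the difference between the muscles (196), where the fit with the animal as a replicate block gave 204. For start usage (1 call), gaps of at most 200 nt gave 0 and of 5000 nt gave 5, and leaving out any library gave 0 each time. For the start position (34 calls), a minimum of 200 tags gave 19, and leaving out a library gave 15 to 61. The fast-muscle share at D1 was lower than control by −0.148 percentage points, and with the list over 5 on the log2 scale it reversed to 0.0315, where U26 alone was high. Without a library the difference was −0.370 to −0.0243. The share of mitochondrial tags differed by 1.44 points, and by 0.0553 to 2.75 without a library. In the other cases the cause was not tested. Depth and 3 rats per group limit what can be seen for weak peaks.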
